A study of Homo sapiens with 12 samples.

Results

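The comparison of A549-HOXC6 with A549-NEO cells asked which genes change in level when HOXC6 is overexpressed in A549, an established human lung adenocarcinoma line. It covers 6 of the 12 RNA-seq libraries of the series, 3 libraries of A549-HOXC6 and 3 of A549-NEO, chosen by their labels alone. A549-HOXC6 cells were stably infected with the lentiviral vector pCDH-HOXC6 and A549-NEO cells with the empty vector pCDH-NEO, and both were kept in neomycin. The vector backbone, the virus and the selection are thus shared by both groups. Each group is a single infected line, and picking of clones is not described. The 3 libraries of a group are called independent replicates without a statement of what was repeated, so p-values measure the spread between these libraries only. Of the 12584 genes analysed here, 8771 had enough counts in these 6 libraries to be tested. HOXC6 itself is not among the genes analysed here, so the labels could not be checked on its level.

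HOX genes encode homeodomain transcription factors that pattern the body axis of the embryo, and their proteins bind short AT-rich DNA motifs, often together with cofactors of the PBX and MEIS families. A549 cells derive from an adenocarcinoma of the distal lung, and carry a KEAP1 mutation, so that NRF2 is active in them.

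Total counts over the analysed genes ran from 1212053 in A549-HOXC6 replicate 2 to 2883304 in A549-NEO replicate 1, and levels are given below as CPM (counts scaled to the same library total) after TMM normalization. A single library of the overexpressing cells stood apart. A549-HOXC6 replicate 3 held counts of 815 of the 1761 genes that had no count in the A549-NEO libraries, whereas replicates 1 and 2 held counts of 114 and 64 of them. In 756 of these 815 genes, replicate 3 had 1 to 3 counts. Among 104 genes that belong to other tissues, such as olfactory receptors and germ line genes, 45 had a count in replicate 3 after every library had been thinned to 1212053 counts, against 14 to 19 in each of the other 5 libraries. Endothelial markers were counted for 10 of 10 genes in replicate 3 and for 2 to 4 in the others, with summed levels of 70.4 CPM in replicate 3 and 33.4 to 49.2 CPM elsewhere. The cells expressed epithelial genes in every library: KRT7, KRT18, KRT80, CDH1, ELF3 and their like summed to 8473 to 8699 CPM in A549-NEO and to 9769 to 11890 CPM in A549-HOXC6. The part of this low background in any result was not tested. Values without replicate 3 are given below for the leading genes and wherever leaving it out ended the call of a gene described.

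**Figure D1:**
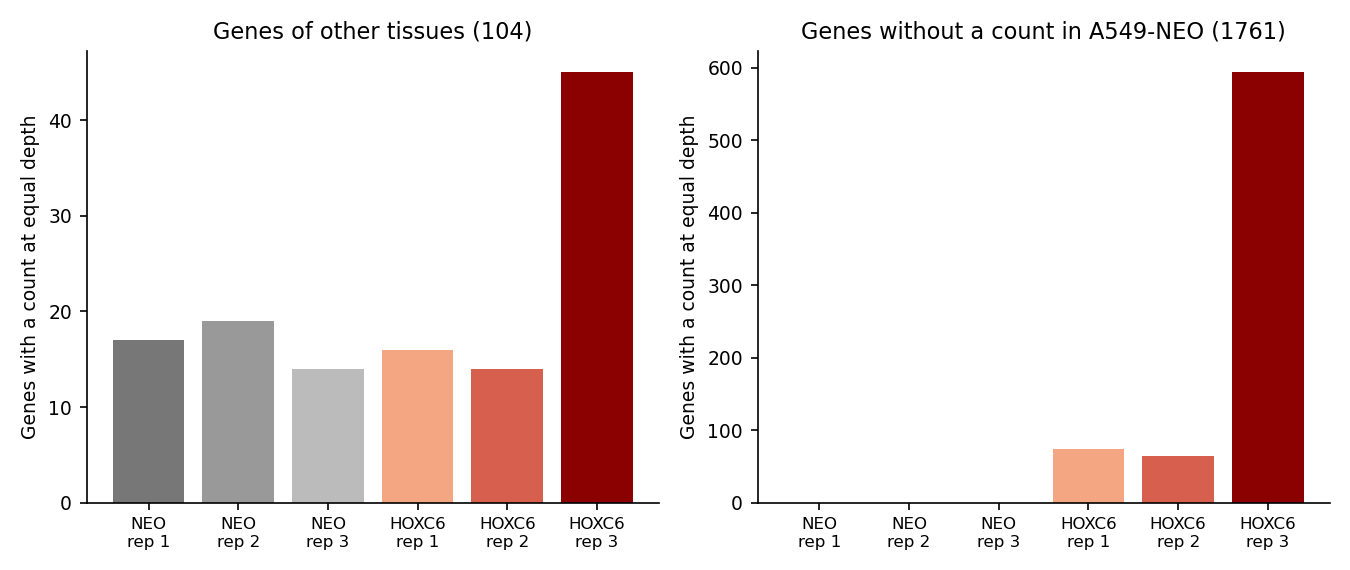
Genes with at least 1 count in each A549 library after thinning to equal depth, for 104 genes of other tissues (left) and for the 1761 genes without a count in A549-NEO (right, where A549-NEO is 0 by construction). A549-HOXC6 replicate 3 had counts of 45 and 594 of these genes, and A549-HOXC6 replicates 1 and 2 had counts of 14 to 16 and 64 to 74.

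The levels of genes in A549-HOXC6 followed the GC content of their transcripts. When 8712 genes were ordered by GC content into 10 bins, the median log2 ratio to the A549-NEO mean in the lowest bin (30.7 to 38.4% GC) was -0.49, -0.52 and -0.79 in A549-HOXC6 replicates 1, 2 and 3. In the highest bin (62.0 to 74.3% GC) the medians were 0.12, 0.11 and 0.36. The A549-NEO libraries stayed between -0.03 and 0.06 in every bin. All 3 A549-HOXC6 libraries thus shared the trend, and it was steepest in replicate 3. Across genes, which are not independent replicates, the log2 fold change had a Spearman correlation of 0.53 with GC content and of -0.27 with transcript length. Smooth trends of counts on GC content and on length were therefore also taken out of every library, and values after this correction are given wherever it ended or made the call of a gene described. The correlations were then 0.02 and -0.02. Such a correction also removes any real difference that follows GC content, and the 2 cannot be told apart.

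**Figure D2:**
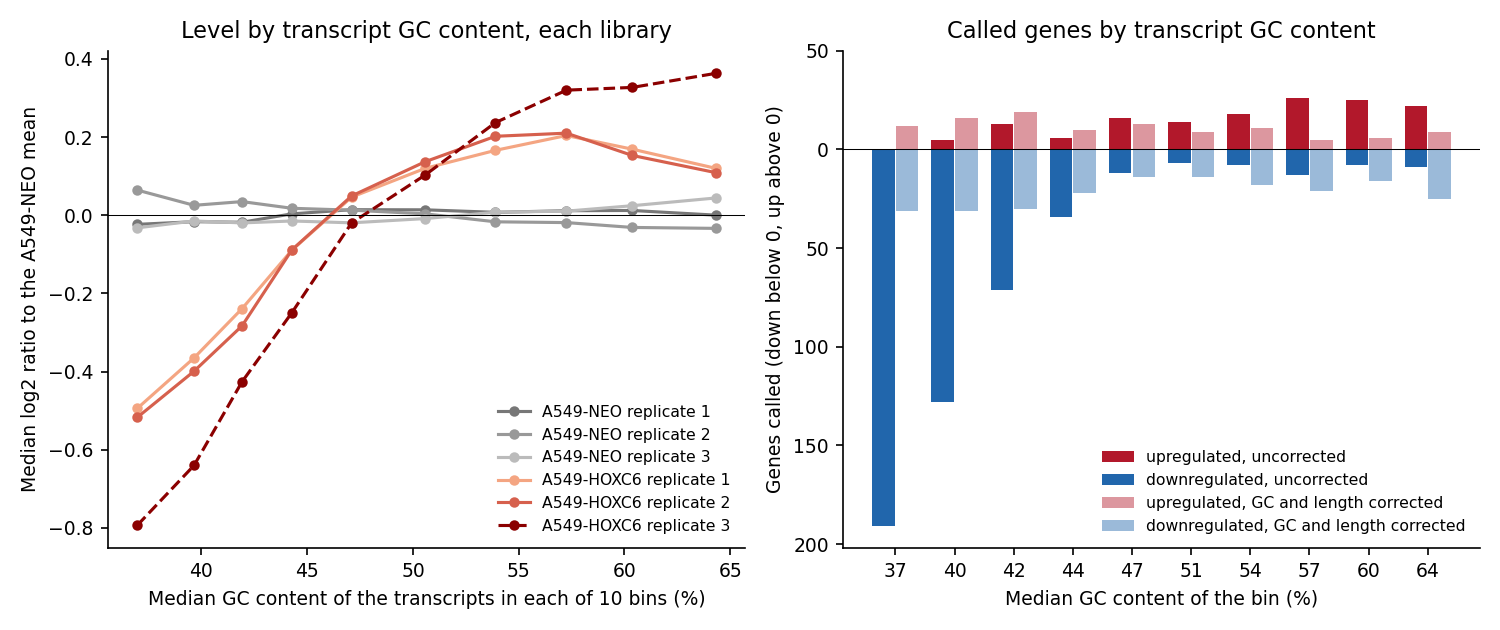
Left, median log2 ratio of each library to the A549-NEO mean (pseudocount of 1 CPM) in 10 bins of transcript GC content. Right, numbers of upregulated (above 0) and downregulated (below 0) genes in each bin, before (dark) and after (light) the correction. Before it, 191 of the 483 downregulated genes lay in the lowest bin, and after it 31 of 224 did.

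In A549-HOXC6, 149 genes were upregulated (1.7% of those tested) and 483 were downregulated (5.51%), at an adjusted p below 0.05 and a log2 fold change beyond 1 in either direction. Without the fold criterion, 18.9% of genes were higher and 20.7% were lower. These shares are the base for the counts in gene lists below. The 3 A549-HOXC6 libraries lay above all 3 A549-NEO libraries for 146 of the 149 upregulated genes and below them for 473 of the 483 downregulated genes. The criteria for a call favour such separation, and among all 8771 tested genes 2116 lay above and 2253 below in this way. Upregulated genes had a median GC content of 55.7%, downregulated genes of 39.3%, and all tested genes of 48.7%. After the GC and length correction, 114 genes were upregulated (1.3%) and 224 were downregulated (2.55%), of which 81 and 171 had been called in that direction before it. At an adjusted p alone, 12.8% were then higher and 18.9% lower, and the median over all genes moved from 0.00 to -0.06. With the libraries recentred after the correction, 139 genes were upregulated and 170 downregulated. When the fold criterion was part of the null hypothesis, 25 were upregulated and 37 downregulated. Without replicate 3, 129 genes were upregulated and 396 downregulated, and 109 of the 149 upregulated and 333 of the 483 downregulated genes were called again. Among the 149 upregulated genes, replicate 3 had the highest level of the A549-HOXC6 libraries in 81, replicate 2 in 47 and replicate 1 in 21.

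DLL4 had the largest increase among genes at a mean of at least 5 CPM. This transmembrane ligand of Notch receptors had 2.74, 2.39 and 0.777 CPM in A549-NEO and 41.5, 27.5 and 39.3 CPM in A549-HOXC6. Every A549-HOXC6 library was far above every A549-NEO library, with a log2 fold change of 4.18 ± 0.32 (SE, adjusted p = 7.5e-11), and 3.91 (adjusted p = 6.0e-14) after the correction. SPARC, a collagen-binding glycoprotein of the matrix, had 1.37, 0.398 and 1.55 CPM in A549-NEO and 13.7, 9.99 and 17.1 CPM in A549-HOXC6. Its counts in A549-NEO were 4, 1 and 4, so the fold (a log2 fold change of 3.57 ± 0.45 (SE, adjusted p = 6.2e-07)) rests on few reads there, and 191 bp of its exons overlap a gene on the opposite strand. CEACAM6, a cell surface adhesion molecule that shares much of its sequence with other CEACAM genes and may share reads with them, had 2.74, 0 and 1.17 CPM in A549-NEO and 13.003, 18.3 and 10.6 CPM in A549-HOXC6. For CEACAM6 this was a log2 fold change of 3.25 ± 0.49 (SE, adjusted p = 8.3e-06), which ran from 2.72 to 4.39 when 1 library was left out. The groups did not overlap for SPARC or CEACAM6, and as for DLL4 this was a condition of their choice. EMILIN1, an elastic fibre glycoprotein, had 2.06, 2.79 and 4.66 CPM in A549-NEO and 15.1, 14.2 and 22.1 CPM in A549-HOXC6. For EMILIN1 this was a log2 fold change of 2.44 ± 0.36 (SE, adjusted p = 4.8e-06). FSTL4, a member of the follistatin-like family, had 14.4, 9.95 and 13.6 CPM in A549-NEO and 72.4, 74.1 and 63.4 CPM in A549-HOXC6. For FSTL4 this was a log2 fold change of 2.45 ± 0.18 (SE, adjusted p = 3.0e-11). ROBO3, a receptor of axon guidance, had 2.06, 1.59 and 1.94 CPM in A549-NEO and 9.84, 4.16 and 10.6 CPM in A549-HOXC6, and its log2 fold change was 2.191 ± 0.46. LBP, which carries bacterial lipopolysaccharide to CD14, had 1.37, 3.18 and 2.33 CPM in A549-NEO and 11.6, 9.16 and 10.1 CPM in A549-HOXC6, and its log2 fold change was 2.191 ± 0.41. TBX3, a T-box transcriptional repressor, was the most abundantly counted of the 12 leading upregulated genes, with 63.8, 63.3 and 66.4 CPM in A549-NEO and 298, 319 and 259 CPM in A549-HOXC6. For TBX3 this was a log2 fold change of 2.17 ± 0.11 (SE, adjusted p = 1.0e-14). Exons of TBX3 (196 bp), SCNN1G (171 bp) and RALGPS2 (255 bp) also overlap genes on the opposite strand, whose reads could not be told apart here. After the correction the 12 log2 fold changes ran from 1.88 for LBP to 3.91 for DLL4. Without A549-HOXC6 replicate 3 all 12 were called again, with 2.04 for ROBO3 to 4.14 for DLL4.

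**Figure D3:**
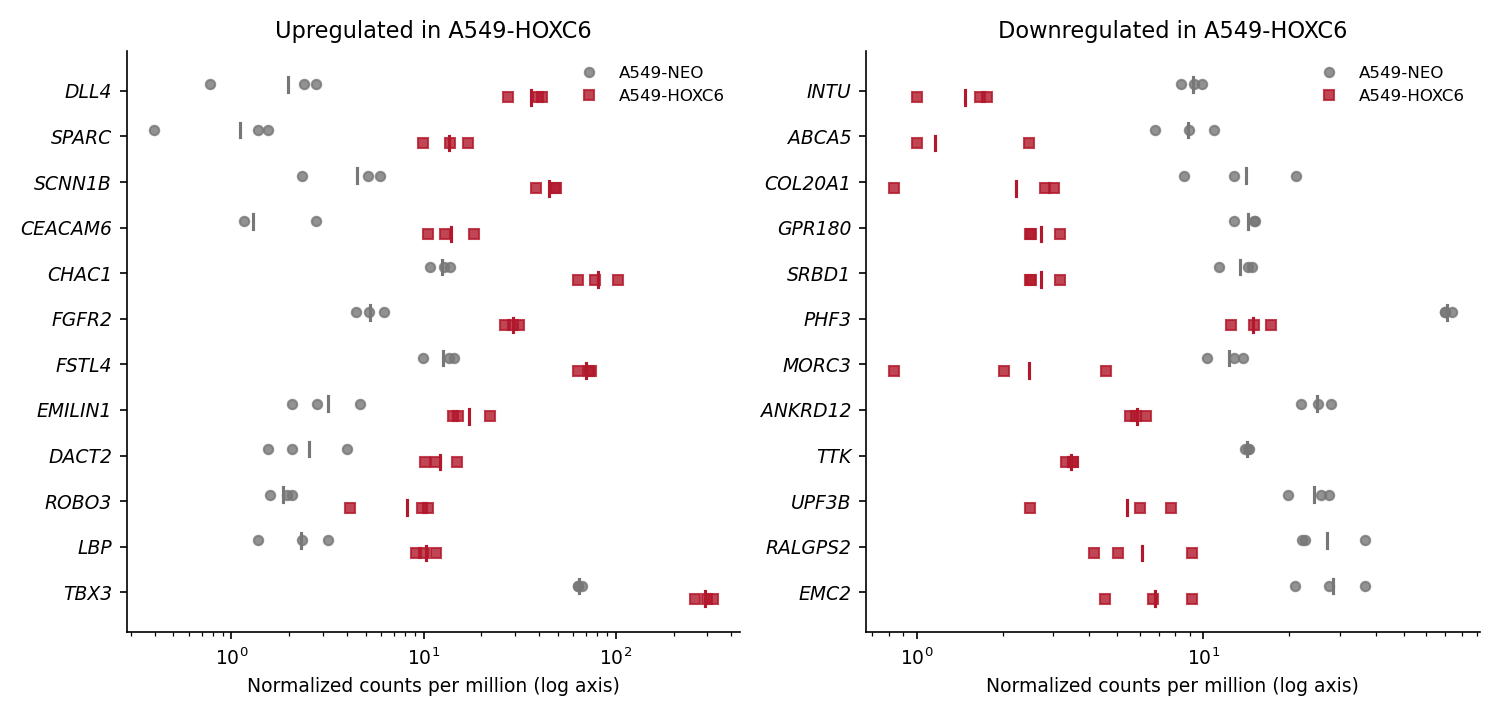
Normalized CPM (log axis) of the 12 upregulated and 12 downregulated genes with the largest changes among those at a mean of at least 5 CPM that were also called after the correction. Points are libraries, a count of 0 is not drawn, and vertical bars are group means over 3 libraries; the groups do not overlap for any of the 24 genes, which is a condition of their choice.

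DLL4 lies next to another strongly increased gene. On chromosome 15 of GRCh37, DLL4 (41221538 to 41231271) and CHAC1 (41245160 to 41248710) run in the same direction with their starts 23.6 kb apart. CHAC1, which degrades glutathione and is a target of the ATF4 stress response, had 13.7, 10.7 and 12.8 CPM in A549-NEO and 78.0, 63.3 and 103 CPM in A549-HOXC6. For CHAC1 this was a log2 fold change of 2.72 ± 0.19 (SE, adjusted p = 1.0e-11). Both genes were thus raised in all 3 A549-HOXC6 libraries, which was a condition of their choice. SCNN1B and SCNN1G, described below, are likewise neighbours. Among other tested genes with starts within 200 kb of the 28 genes named for their size of change, ESAM and NRGN beside ROBO3 were upregulated, with log2 fold changes of 1.18 and 1.24. Neither was called after the correction, at 0.85 (adjusted p = 0.15) and 0.91 (adjusted p = 0.085), or without A549-HOXC6 replicate 3, at 1.01 and 0.79. ESAM kept its call only when A549-HOXC6 replicate 2 was left out (0.84 to 1.45 over the other cases). NKAP beside UPF3B and EIF3E beside EMC2 were downregulated, with -1.02 and -1.31, and fell short of the fold criterion after the correction, with -0.84 and -0.87. Other neighbours were called only after it. BIRC7 and CHRNA4 beside COL20A1 were then lower, with -1.24 and -1.08. SPINT1 near DLL4 and CHAC1 was lower, with -1.08, and MAP2K6 beside ABCA5 was higher, with 1.002, each opposite to the named gene.

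The sequences upstream of DLL4 and CHAC1 are shown because the neighbours moved together, and those of C4BPA and PHF3 because they hold the core letters of homeodomain sites in one gene that rose and one that fell. Each is the 250 bases before the first start that RefSeq lists (GRCh38.p14), written 5′ to 3′ on the strand of the gene, with the letters TAAT, on either strand, in capitals. Both DLL4 (chr15:40929090-40929339) and CHAC1 (chr15:40953221-40953470) are on the forward strand, as are C4BPA (chr1:207103983-207104232) and PHF3 (chr6:63635552-63635801).
DLL4: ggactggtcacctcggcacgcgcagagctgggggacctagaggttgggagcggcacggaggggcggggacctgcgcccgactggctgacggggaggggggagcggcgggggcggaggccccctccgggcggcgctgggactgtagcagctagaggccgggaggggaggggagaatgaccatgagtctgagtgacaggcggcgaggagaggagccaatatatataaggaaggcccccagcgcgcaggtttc
CHAC1: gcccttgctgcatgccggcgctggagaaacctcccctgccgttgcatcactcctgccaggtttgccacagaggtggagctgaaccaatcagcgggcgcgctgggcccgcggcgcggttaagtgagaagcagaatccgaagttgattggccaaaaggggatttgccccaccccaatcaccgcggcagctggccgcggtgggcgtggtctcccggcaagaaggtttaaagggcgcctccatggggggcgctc
C4BPA: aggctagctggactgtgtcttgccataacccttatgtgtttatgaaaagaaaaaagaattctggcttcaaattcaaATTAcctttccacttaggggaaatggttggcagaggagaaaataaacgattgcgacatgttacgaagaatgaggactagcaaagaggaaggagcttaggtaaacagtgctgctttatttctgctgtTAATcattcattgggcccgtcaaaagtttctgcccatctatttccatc
PHF3: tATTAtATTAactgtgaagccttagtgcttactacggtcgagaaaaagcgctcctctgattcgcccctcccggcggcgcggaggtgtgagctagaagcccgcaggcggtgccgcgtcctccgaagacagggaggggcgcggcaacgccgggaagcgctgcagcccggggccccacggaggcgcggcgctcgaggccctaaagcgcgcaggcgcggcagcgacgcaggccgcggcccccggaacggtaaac
The upstream sequences of DLL4 and CHAC1, with 70.0% and 64.8% GC, hold no TAAT, and those of C4BPA and PHF3 hold 2 each. Of the 28 genes named for their size of change, 20 have a RefSeq entry, and TAAT occurs upstream of 2 of 10 that rose and 4 of 10 that fell. It occurs in the 250 bases of 33.0% of the 112 upregulated and 36.5% of the 403 downregulated genes with an entry, against 31.3% of the 7087 tested genes with an entry and 48.2% of all 27305 RefSeq genes. TGATNNAT, a form of the joint PBX and HOX site searched on both strands, occurs in 5.36% of upregulated (6 genes), 2.98% of downregulated (12 genes) and 2.62% of tested genes, and in none of the 4 sequences shown. A match is a string of letters and not evidence of binding, and its absence says only that these letters are not in this window.

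The Notch pathway passes signals between neighbouring cells: a ligand on one cell leads to cleavage of a receptor on the next, and the freed intracellular part activates HES and HEY genes with RBPJ and MAML cofactors. Of 28 tested members, 1 (DLL4) was upregulated and 1 was downregulated, against 1.7% and 5.51% of all tested genes. The latter was MIB1, the ubiquitin ligase that ligands need for their uptake. Of 8 listed ligands only 3 are among the genes analysed here. The other tested ligands showed no such rise: DLL3 had 25.0, 23.1 and 18.6 CPM in A549-NEO and 22.5, 23.3 and 23.7 CPM in A549-HOXC6, and its log2 fold change was 0.05 (adjusted p = 0.87), while that of JAG1 was -0.20 (adjusted p = 0.15). Among the receptors, the log2 fold change was -0.35 (adjusted p = 0.0075) for NOTCH1, 0.10 (adjusted p = 0.49) for NOTCH2 and 0.11 (adjusted p = 0.33) for NOTCH3, so that NOTCH1 was lower by a small amount. MIB1 had 74.4, 85.9 and 67.2 CPM in A549-NEO and 27.4, 29.1 and 18.6 CPM in A549-HOXC6. For MIB1 this was a log2 fold change of -1.61 ± 0.17 (SE, adjusted p = 2.1e-08). The tested targets HES1, HES2, HES6 and HEYL had log2 fold changes of 0.14, 0.69, 0.04 and 0.53, and none passed the test. The median over the pathway was 0.03, and -0.17 after the correction.

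The epithelial sodium channel (ENaC), the rate-limiting entry of sodium in lung and kidney epithelium, is built of the subunits SCNN1A, SCNN1B and SCNN1G. SCNN1B had 5.14, 5.97 and 2.33 CPM in A549-NEO and 48.8, 48.3 and 38.2 CPM in A549-HOXC6. For SCNN1B this was a log2 fold change of 3.31 ± 0.26 (SE, adjusted p = 1.0e-10). SCNN1G, which lies beside it on chromosome 16, had 0.343, 0.796 and 0.777 CPM in A549-NEO and 9.49, 4.99 and 10.1 CPM in A549-HOXC6. Neither gene overlapped between the groups, which was a condition for genes named for their size of change. SCNN1G had only 5 counts over the 3 A549-NEO libraries and 53 over A549-HOXC6, a ratio of 14.1 with an exact 95% interval of 5.66 to 45.1 that covers counting error only. By contrast SCNN1A had 13.7, 19.9 and 13.2 CPM in A549-NEO and 20.4, 21.6 and 23.1 CPM in A549-HOXC6. Its log2 fold change was 0.48 (adjusted p = 0.1), and that of SCNN1D, the remaining subunit gene, was -0.07 (adjusted p = 0.87). SGK1, the kinase that keeps ENaC at the membrane by restraining NEDD4-type ligases, rose in every library: it had 19.5, 25.1 and 22.9 CPM in A549-NEO and 94.5, 95.7 and 83.5 CPM in A549-HOXC6. For SGK1 this was a log2 fold change of 2.02 ± 0.15 (SE, adjusted p = 3.9e-11). NEDD4 fell from 94.2 ± 9.01 to 44.9 ± 7.13 CPM (SD, n = 3), although its log2 fold change of -1.05 ± 0.14 became -0.50 (adjusted p = 0.0017) after the correction, and it fell below the fold criterion without A549-HOXC6 replicate 3 (-0.93) or A549-NEO replicate 1 (-0.98). NEDD4L, the ligase best known for ENaC, had -0.16 (adjusted p = 0.34). Of the 19 tested genes of the channel and its corticoid control, 3 were upregulated and 1 downregulated, and 7 (36.8%) were higher by adjusted p alone, both before and after the correction, against 18.9% and 12.8% of all genes. The corticoid response genes TSC22D3 and FKBP5 had log2 fold changes of 0.37 (adjusted p = 0.03) and 0.22 (adjusted p = 0.48), and NR3C1, the glucocorticoid receptor, of -0.30 (adjusted p = 0.087). Of 172 solute carriers, 1 was upregulated and 5 were downregulated, again against 1.7% and 5.51% of all tested genes. The upregulated gene was SLC27A2, a fatty acid transporter, with 78.2, 83.2 and 92.8 CPM in A549-NEO and 277, 261 and 251 CPM in A549-HOXC6 and a log2 fold change of 1.64 ± 0.10.

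Damage-induced genes of growth arrest and apoptosis were lower. The genes of this list are raised when DNA is damaged and act in cell cycle arrest, apoptosis or repair, and the list is separate from that of DNA repair genes given further on. Of 22 tested genes, 15 (68.2%) were lower by adjusted p alone and 2 (9.09%) were higher, against 20.7% and 18.9% of all genes. The median log2 fold change was -0.72 against 0.00 for all genes, and 4 of the 15 passed the fold criterion. After the correction 16 (72.7%) were lower and 2 higher, against 18.9% and 12.8% of all genes, with a median of -0.80, and 6 passed the fold criterion. Without A549-HOXC6 replicate 3 the median was -0.64. CDKN1A, which encodes the cyclin-dependent kinase inhibitor p21, had 785, 819.6 and 745 CPM in A549-NEO and 361, 410.4 and 432 CPM in A549-HOXC6. For CDKN1A this was a log2 fold change of -0.97 ± 0.08 (SE, adjusted p = 4.6e-10), and -1.30 (adjusted p = 1.1e-21) after the correction. BBC3, the proapoptotic protein PUMA, had 211, 233 and 191 CPM in A549-NEO and 86.1, 102 and 144 CPM in A549-HOXC6. For BBC3 this was a log2 fold change of -0.94 ± 0.13 (SE, adjusted p = 2.4e-06). GADD45A, of the growth arrest response, had 111, 127 and 125 CPM in A549-NEO and 62.6, 72.4 and 58.4 CPM in A549-HOXC6. All A549-HOXC6 libraries lay below all A549-NEO libraries for these 3 genes, although none of them passed the fold criterion before the correction. CDKN1A and BBC3 passed it without A549-HOXC6 replicate 3, with -1.04 and -1.21. BBC3 and GADD45A had -1.21 and -1.21 after the correction. RRM2B, the damage-induced ribonucleotide reductase subunit, had the largest decrease, with 91.2, 91.5 and 98.3 CPM in A549-NEO and 25.7, 30.8 and 26.7 CPM in A549-HOXC6. For RRM2B this was a log2 fold change of -1.78 ± 0.14 (SE, adjusted p = 1.7e-10). SESN1 and CCNG1 were also downregulated, with log2 fold changes of -1.21 ± 0.30 and -1.01 ± 0.17, and had -0.82 and -0.59 after the correction. Without replicate 3 the log2 fold changes of CCNG1 and MDM2 were -0.87 and -0.94, and CCNG1 also lost the call without A549-NEO replicate 2 (-0.89). FDXR and BTG2 moved the other way, from -0.72 and -0.82 to -1.02 and -1.05. BAX and DDB2 were lower by less, with -0.40 and -0.50. Among the exceptions were GADD45B, which was higher with a log2 fold change of 0.76, and SESN2 and FAS, with 0.01 (adjusted p = 0.97) and -0.03 (adjusted p = 0.9). The ubiquitin ligase MDM2, whose gene is also raised by DNA damage, had 57.9, 62.9 and 54.4 CPM in A549-NEO and 26.4, 38.3 and 19.6 CPM in A549-HOXC6. For MDM2 this was a log2 fold change of -1.12 ± 0.18 (SE, adjusted p = 1.7e-05), and -0.63 (adjusted p = 0.0023) after the correction, which ended the call. GDF15, a secreted stress cytokine that is counted here with the TGF-beta family, had 792, 859 and 821 CPM in A549-NEO and 254, 248 and 308 CPM in A549-HOXC6. For GDF15 this was a log2 fold change of -1.61 ± 0.09 (SE, adjusted p = 7.3e-14).

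**Figure D4:**
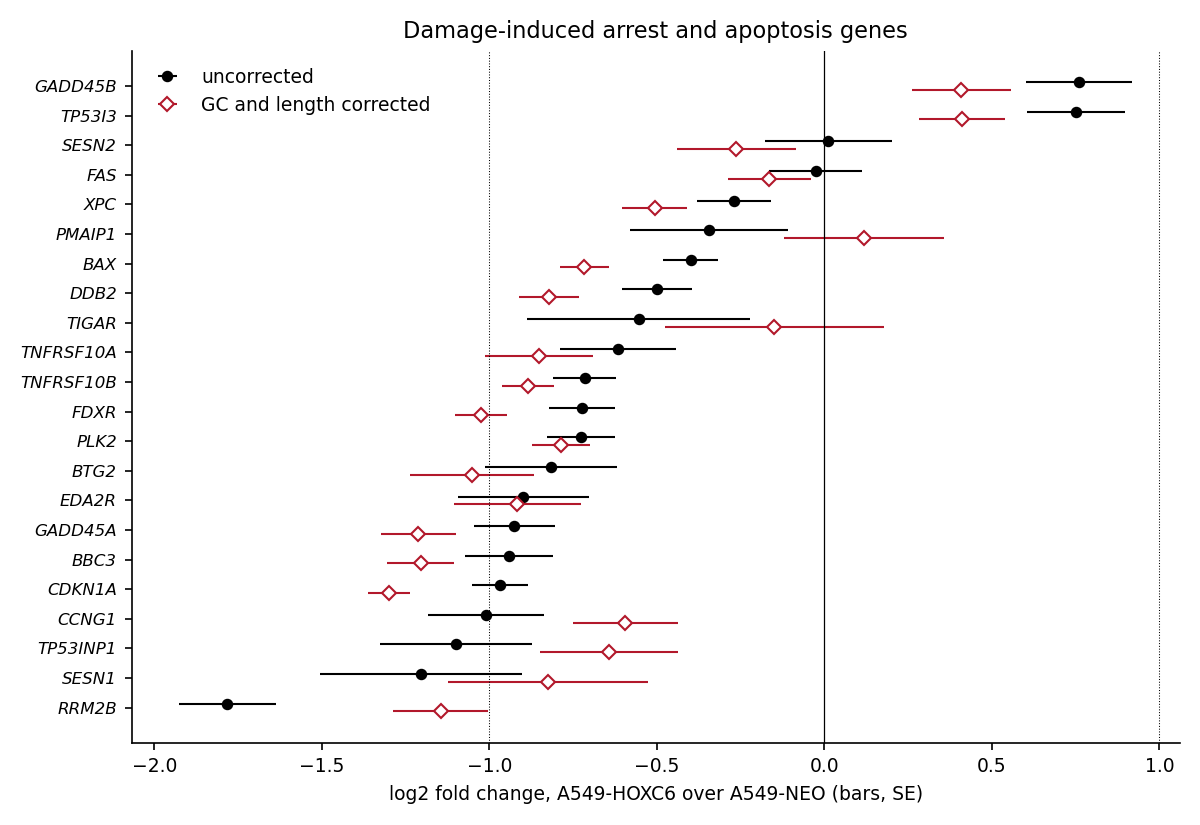
log2 fold change of the 22 tested damage-induced genes of arrest and apoptosis in A549-HOXC6 over A549-NEO, with SE, before (filled circles) and after (open diamonds) the GC and length correction, over 3 libraries a group; dotted lines mark the fold criterion. Of these genes 19 lay below 0 before the correction and 19 after it.

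Genes of cell division and DNA synthesis moved in both directions. The list of DNA replication, nucleotide supply and the step from G1 to S phase had a median log2 fold change of 0.21 over 65 tested genes (0.22 after the correction). By adjusted p 21 (32.3%) were higher and 8 (12.3%) lower, against 18.9% and 20.7% of all genes. The 42 genes of the replication machinery alone had a median of 0.20, with 14 (33.3%) higher and 4 (9.52%) lower. Thymidine kinase TK1 had 86.1, 80.4 and 77.7 CPM in A549-NEO and 159.9, 153 and 212 CPM in A549-HOXC6 and a log2 fold change of 1.11 ± 0.12. E2F1, a transcription factor of S phase entry, had 34.3, 28.2 and 31.5 CPM in A549-NEO and 64.3, 59.1 and 74.5 CPM in A549-HOXC6 and 1.08 ± 0.15. Both fell short of the fold criterion after the correction, with 0.77 and 0.79, and without A549-HOXC6 replicate 3, with 0.95 and 0.99. Of the MCM helicase genes, MCM5 had 0.97 and MCM3 had 0.89. Among 77 mitotic genes 2 were upregulated and 10 downregulated, against 1.7% and 5.51% of all tested genes. After the correction 2 and 2 were called, against 1.3% and 2.55%. ZWINT, a kinetochore protein, rose from 13.9 ± 1.22 to 37.7 ± 2.36 CPM (SD, n = 3), with a log2 fold change of 1.43 ± 0.20 (SE, adjusted p = 2.2e-06). TTK, the kinase of the spindle checkpoint, had 14.4, 14.3 and 13.98 CPM in A549-NEO and 3.51, 3.33 and 3.52 CPM in A549-HOXC6. For TTK this was a log2 fold change of -2.02 ± 0.34 (SE, adjusted p = 3.7e-05). SMC3, a cohesin subunit, had a log2 fold change of -1.58 ± 0.22. These 2 were the downregulated mitotic genes that remained after the correction, with -1.51 and -1.02. For TOP2A, STAG2 and PDS5B the log2 fold change was -1.15 ± 0.10, -1.41 ± 0.14 and -1.42 ± 0.33 before and -0.67, -0.80 and -0.77 after it.

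Genes of chromatin, splicing and DNA repair were among the downregulated genes, and the correction removed most of those calls. Over all tested genes, 1.7% were upregulated and 5.51% downregulated, and 1.3% and 2.55% after the correction. Of 81 chromatin regulators, 14 were downregulated and none upregulated, with a median of -0.27, and 3 remained downregulated after the correction, with a median of -0.23. Without A549-HOXC6 replicate 3, 9 were downregulated. PHF3, a PHD finger protein that binds RNA polymerase II, had 73.7, 69.6 and 69.9 CPM in A549-NEO and 17.2, 12.5 and 15.1 CPM in A549-HOXC6. For PHF3 this was a log2 fold change of -2.20 ± 0.17 (SE, adjusted p = 8.2e-11), and -1.42 (adjusted p = 4.5e-09) after the correction, and 1993 bp of its exons overlap genes on the opposite strand. The other genes kept were ANKRD12, a corepressor-binding ankyrin protein, at -2.06 and then -1.31, and NIPBL, the cohesin loader, at -1.63 and then -1.09. ATRX, a remodeller of heterochromatin, had 38.1, 44.6 and 41.6 CPM in A549-NEO and 18.6, 11.7 and 7.04 CPM in A549-HOXC6, and passed the fold criterion before (-1.65 ± 0.23) but not after the correction (-0.96). DNA repair genes gave 2 upregulated and 8 downregulated of 72, or 1 and 5 without A549-HOXC6 replicate 3, and after the correction only ERCC5, a nucleotide excision repair nuclease, was called, with 13.4, 13.9 and 10.9 CPM in A549-NEO and 5.62, 2.50 and 3.52 CPM in A549-HOXC6. The kinase ATM and NBN, a member of the MRN complex at DNA breaks, had log2 fold changes of -1.28 and -1.37, which became -0.67 and -0.83. Splicing factors gave 6 downregulated genes of 56, and SRRM1 and NKTR kept the call after the correction, at -1.22 and -1.11, although SRRM1 had -0.95 uncorrected without A549-HOXC6 replicate 3. Of 123 genes named ZNF, 12 were downregulated and ZNF503 was upregulated, and 6 decreases were called after the correction, led by ZNF182 and ZNF195 with -1.66 and -1.57. ZNF503 was not called after the correction (0.79) or without A549-HOXC6 replicate 3 (0.93).

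Of 49 tested genes of the primary cilium, 10 were downregulated and none upregulated, against 5.51% and 1.7% of all tested genes (2.55% and 1.3% after the correction). The median of the cilium genes was -0.02. INTU, a planar polarity protein needed for ciliogenesis, was the most decreased of them, with 9.94, 8.36 and 9.32 CPM in A549-NEO and 1.76, 1.66 and 1.01 CPM in A549-HOXC6. For INTU this was a log2 fold change of -2.59 ± 0.46 (SE, adjusted p = 6.9e-05). This fold rests on few reads, since INTU lay below 3 counts (2.50 and 1.51 CPM) in A549-HOXC6 replicates 2 and 3. OFD1 and CCP110, proteins of the centriole, were lower too. OFD1 had 34.3, 25.9 and 36.9 CPM in A549-NEO and 11.6, 12.5 and 7.55 CPM in A549-HOXC6. CCP110 had 18.5, 23.1 and 19.0 CPM in A549-NEO and 6.68, 7.49 and 5.54 CPM in A549-HOXC6. All 3 were lower in every A549-HOXC6 library, for INTU a condition of its choice, and stayed called after the correction, at -2.06, -1.49 and -1.11. The remaining 7 were no longer called. Of these, PCM1, IFT81 and AHI1 fell short of the fold criterion, with -0.67, -0.89 and -0.75, and CEP152 lost the call by its adjusted p, with -1.05 (adjusted p = 0.069). The 10 tested Hedgehog genes had a median of 0.43, with 4 higher and 0 lower by adjusted p, against 18.9% and 20.7% of all genes. After the correction their median was 0.26, with 2 higher and 0 lower, against 12.8% and 18.9%.

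The other leading decreases came from varied functions. ABCA5, a lipid transporter of lysosomes, had 8.91, 6.76 and 10.9 CPM in A549-NEO and 2.46, 0 and 1.01 CPM in A549-HOXC6, and a log2 fold change of -2.55 ± 0.51. The fold of ABCA5 rests on few reads and ran from -3.71 to -2.23 when 1 library was left out. COL20A1, a little studied collagen, had 8.57, 21.1 and 12.8 CPM in A549-NEO and 2.81, 0.832 and 3.02 CPM in A549-HOXC6. For COL20A1 this was a log2 fold change of -2.48 ± 0.44 (SE, adjusted p = 5.6e-05), and -2.60 after the correction. GPR180 had 15.1, 15.1 and 12.8 CPM in A549-NEO and 3.16, 2.50 and 2.52 CPM in A549-HOXC6. SRBD1 had 11.3, 14.3 and 14.8 CPM in A549-NEO and 3.16, 2.50 and 2.52 CPM in A549-HOXC6. No library of one group reached those of the other for these 4 genes, which was a condition of their choice. MORC3, an ATPase of nuclear bodies, had a log2 fold change of -2.06, UPF3B, a factor of nonsense-mediated decay, of -2.01, RALGPS2, an exchange factor for Ral, of -2.01, and EMC2, a subunit of the membrane insertase of the endoplasmic reticulum, of -1.996. The 12 leading downregulated genes were all called again without A549-HOXC6 replicate 3, with -1.75 for EMC2 to -2.64 for COL20A1. FRMD4B and MLANA had 5 counts each over the A549-HOXC6 libraries against 56 and 43 in A549-NEO, which gives ratios of 8.44 (exact 95% interval 3.41 to 27.0) and 6.48 (2.57 to 21.0) in favour of A549-NEO, for counting error only.

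Matrix, integrin and protease genes split into rises and falls. Of 50 matrix and integrin genes, SPARC, THBS1 and CCN2 were upregulated and 5 were downregulated, against 1.7% and 5.51% of all tested genes. THBS1, thrombospondin 1, had 19.2, 27.1 and 21.8 CPM in A549-NEO and 72.0, 69.9 and 55.9 CPM in A549-HOXC6. For THBS1 this was a log2 fold change of 1.55 ± 0.17 (SE, adjusted p = 5.0e-08). CCN2 had 6.51, 12.7 and 10.9 CPM in A549-NEO and 20.7, 14.2 and 30.7 CPM in A549-HOXC6, with a log2 fold change of 1.18 ± 0.28 that became 0.90. FN1, fibronectin, was among the most counted of the group and had 2430.3, 2525 and 2433 CPM in A549-NEO and 4906, 4504 and 4035 CPM in A549-HOXC6, an increase of 0.86 (adjusted p = 7.6e-11) that stayed below the fold criterion. Against these, the laminin chains LAMB1 and LAMA3 fell, whereas LAMC1 had -0.01 (adjusted p = 0.93). LAMB1 had 1067, 1045 and 1109 CPM in A549-NEO and 473, 508 and 395 CPM in A549-HOXC6. For LAMB1 this was a log2 fold change of -1.23 ± 0.08 (SE, adjusted p = 6.0e-12). LAMA3 had 255, 259 and 253 CPM in A549-NEO and 120.2, 125 and 94.1 CPM in A549-HOXC6, with -1.18 ± 0.11. Both remained called after the correction, at -1.34 and -1.22. The proteoglycan VCAN and the integrin ITGB1 had -1.34 ± 0.10 and -1.10 ± 0.09, and -0.96 and -0.72 after it, and ITGB1 had -0.97 without A549-HOXC6 replicate 3. ITGB5, a partner of the alpha V chain, was higher, with 969.6, 933 and 986 CPM in A549-NEO and 1809, 1727 and 1833 CPM in A549-HOXC6 and a log2 fold change of 0.89 (adjusted p = 4.6e-11). The gelatinase MMP2 had 7.54, 6.76 and 3.88 CPM in A549-NEO and 10.5, 13.3 and 23.1 CPM in A549-HOXC6. The metalloproteinase inhibitor TIMP4 had 5.14, 9.55 and 8.55 CPM in A549-NEO and 19.7, 15.8 and 21.6 CPM in A549-HOXC6, with log2 fold changes of 1.34 ± 0.34 and 1.33 ± 0.28. MMP2 and CCN2 were not called without A549-HOXC6 replicate 3, at 0.91 and 0.89, nor was CCN2 without A549-NEO replicate 1 (0.92). MMP7, MMP9 and MMP19 did not pass the test (0.42 (adjusted p = 0.075), -0.12 (adjusted p = 0.85) and 0.47 (adjusted p = 0.052)), and MMP14 was lower with -0.71 (adjusted p = 0.033). For the mesenchymal genes VIM and TWIST1 the log2 fold changes were 0.03 (adjusted p = 0.72) and 0.32 (adjusted p = 0.37). ZEB1 had -0.78 (adjusted p = 0.0019), and for the epithelial cadherin CDH1 it was -0.43 (adjusted p = 0.003). Epithelial junction genes moved both ways, with 2 higher and 3 lower of 15 by adjusted p. Only CRB3 among them was called, and it rose, with 1.36 (adjusted p = 0.018). CRB3 was not called after the correction, with 1.02 (adjusted p = 0.075). It also lost the call, by its adjusted p, without A549-HOXC6 replicate 3 (1.01) or A549-NEO replicate 2 (1.19).

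Ligands, inhibitors and receptors of growth factor pathways held a few large changes. Over all tested genes, 1.7% were upregulated and 5.51% downregulated, and 1.3% and 2.55% after the correction. In the TGF-beta and BMP family (41 tested, 2 up and 2 down before and after the correction), the BMP antagonist GREM1 had 2.74, 1.99 and 3.50 CPM in A549-NEO and 11.2, 12.5 and 9.06 CPM in A549-HOXC6. For GREM1 this was a log2 fold change of 1.95 ± 0.39 (SE, adjusted p = 2.4e-04). The decoy receptor BAMBI had 25.7, 31.0 and 29.5 CPM in A549-NEO and 82.2, 90.7 and 103 CPM in A549-HOXC6. For BAMBI this was a log2 fold change of 1.67 ± 0.15 (SE, adjusted p = 8.1e-10). BMP7, a ligand, fell from 11.3 ± 2.95 to 2.74 ± 1.66 CPM (SD, n = 3), with a log2 fold change of -1.85 ± 0.41 (SE, adjusted p = 6.8e-04). Both inhibitors rose and BMP7 fell in every library. Of 13 tested ligands of the family, 6 (46.2%) were higher and 3 (23.1%) lower by adjusted p, against 18.9% and 20.7% of all genes. Their median was 0.43, or 0.16 after the correction, when 4 were higher and 2 lower. None of the 10 receptors passed the fold criterion, with ACVR1B at 0.54 (adjusted p = 9.7e-04) and ACVR2B at -0.76 (adjusted p = 0.0025). FGFR2, a receptor of fibroblast growth factors, had 4.46, 5.17 and 6.22 CPM in A549-NEO and 31.3, 26.6 and 29.2 CPM in A549-HOXC6. For FGFR2 this was a log2 fold change of 2.47 ± 0.26 (SE, adjusted p = 2.5e-08), and it was the upregulated gene of 30 in its list. The EGFR ligand EREG had 129.9, 141 and 124 CPM in A549-NEO and 59.7, 78.2 and 49.3 CPM in A549-HOXC6 and -1.11 ± 0.13, which became -0.53 after the correction. Feedback inhibitors of ERK signalling gave no call before the correction: DUSP4 and DUSP5 were lower with -0.80 (adjusted p = 4.8e-08) and -0.72 (adjusted p = 5.6e-08), and DUSP6 and SPRY2 had 0.36 (adjusted p = 0.24) and 0.39 (adjusted p = 0.18). After it DUSP5 was called, with -1.04 (adjusted p = 7.2e-18). Of 6 IGF binding proteins 5 were higher by adjusted p, IGFBP1 by 0.95 and IGFBP3 by 0.81, all below the fold criterion, and 3 of the 6 were higher after the correction. Among Wnt genes, WNT5A was upregulated with 2.06, 4.38 and 1.17 CPM in A549-NEO and 5.27, 5.83 and 6.54 CPM in A549-HOXC6 and an adjusted p of 0.049, RSPO3 and APC were downregulated (-1.21 ± 0.12 and -1.24 ± 0.36). Neither of these was called after the correction, with -0.83 (adjusted p = 1.9e-07) and -0.70 (adjusted p = 0.14). The inhibitor DKK1 had 716, 746 and 710.5 CPM in A549-NEO and 1402, 1470.1 and 1471 CPM in A549-HOXC6. For DKK1 this was a log2 fold change of 0.999 ± 0.07 (SE, adjusted p = 1.0e-11), just short of the fold criterion, which it passed after the correction with 1.04. Leaving out 1 library ended the call of WNT5A in 5 of 6 cases (0.88 to 1.30), of EREG without A549-HOXC6 replicate 3 (-0.99) and of APC without A549-HOXC6 replicate 2 (-0.997). DACT2, an antagonist of Wnt and TGF-beta signalling, had 2.06, 3.98 and 1.55 CPM in A549-NEO and 10.2, 15.0 and 11.6 CPM in A549-HOXC6. For DACT2 this was a log2 fold change of 2.22 ± 0.40 (SE, adjusted p = 8.7e-05).

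Complement and coagulation genes gave 2 upregulated and 3 downregulated of 22, against 1.7% and 5.51% of all tested genes. C4BPA, an inhibitor of the classical complement pathway, had 2, 0 and 0 reads in the A549-NEO libraries and 15, 5 and 10 reads in those of A549-HOXC6. This is a ratio of 19.9 (exact 95% interval 5.05 to 172.0, counting error only). VTN, vitronectin, had 8.91, 10.3 and 4.66 CPM in A549-NEO and 13.7, 23.3 and 18.6 CPM in A549-HOXC6, with a log2 fold change of 1.15 ± 0.30, and 0.81 after the correction, which ended the call. The component C3 was higher with 362, 375 and 382 CPM in A549-NEO and 556, 523 and 578 CPM in A549-HOXC6, below the fold criterion at 0.57 (adjusted p = 2.5e-06). TFPI, the inhibitor of the tissue factor pathway, had 199.9, 225 and 206 CPM in A549-NEO and 52.4, 74.9 and 45.3 CPM in A549-HOXC6. For TFPI this was a log2 fold change of -1.92 ± 0.13 (SE, adjusted p = 5.6e-12). PLAU, the urokinase that activates plasminogen, had 799, 831 and 780.0 CPM in A549-NEO and 379, 346 and 379.9 CPM in A549-HOXC6. For PLAU this was a log2 fold change of -1.12 ± 0.08 (SE, adjusted p = 1.0e-11). These 2 decreases were seen in every library and held after the correction, at -1.30 and -1.41. Of 33 chemokine and NF-kB genes none was upregulated and 3 were downregulated, namely the cytokine LIF with 376, 356 and 371 CPM in A549-NEO and 137, 152 and 158 CPM in A549-HOXC6, BIRC3 with -1.49 ± 0.16 and the receptor TNFRSF1B with -1.46 ± 0.46. After the correction BIRC3 was no longer called, with -0.83. The members lower by adjusted p alone went from 9 (27.3%) to 16 (48.5%), against 20.7% and 18.9% of all genes. The interferon list gave 1 gene in each direction, IFI6 at 1.08 ± 0.37 and JAK2 at -1.17 ± 0.38, and neither was called after the correction, with 0.75 and -0.54. IFI6 lost the call in 4 of 6 cases and JAK2 in 2 when 1 library was left out, by their adjusted p (log2 fold changes of 1.03 to 1.10 and -1.15 to -1.01), TNFRSF1B lost it without A549-HOXC6 replicate 3 (-1.23), and VTN without A549-NEO replicate 3 (0.89) or A549-HOXC6 replicate 2 (0.99).

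In the list of ER stress and amino acid response, with 41 tested genes, CHAC1 was upregulated and the chaperone HSP90B1 downregulated, against 1.7% and 5.51% of all tested genes. HSP90B1 had 694, 719 and 694 CPM in A549-NEO and 299, 334 and 260.2 CPM in A549-HOXC6. For HSP90B1 this was a log2 fold change of -1.25 ± 0.09 (SE, adjusted p = 1.0e-11). Of 23 ATF4 targets, CHAC1 among them, 8 (34.8%) were higher and 7 (30.4%) lower by adjusted p, with a median of 0.02. Over all tested genes these shares were 18.9% and 20.7%, and 12.8% and 18.9% after the correction. HIF1A had 306, 311 and 314 CPM in A549-NEO and 134, 129.9 and 96.6 CPM in A549-HOXC6 and -1.37 ± 0.11, which became -0.97 after the correction and was no longer called. The hypoxia-induced hydroxylase EGLN3 had 4.11, 7.56 and 4.66 CPM in A549-NEO and 16.9, 6.66 and 25.2 CPM in A549-HOXC6 and 1.66 ± 0.36. Glycolytic enzymes were higher by adjusted p for 13 (54.2%) and lower for 3 (12.5%) of 24, with none past the fold criterion and a median of 0.30. After the correction 9 (37.5%) were higher and 4 (16.7%) lower, with a median of 0.14. For the NRF2 targets the median was -0.03 over 26 genes, of which 9 (34.6%) were higher and 4 (15.4%) lower by adjusted p. After the correction 11 (42.3%) were higher and 6 (23.1%) lower, with a median of 0.00. ALDH3A1, an aldehyde dehydrogenase, was upregulated with 1185, 1143 and 1169.6 CPM in A549-NEO and 2454, 2549 and 3055 CPM in A549-HOXC6 and 1.204 ± 0.07. It was not called after the correction, with 0.87. The NRF2 gene NFE2L2 and its inhibitor KEAP1 had log2 fold changes of -0.87 (adjusted p = 9.8e-06) and 0.92 (adjusted p = 3.2e-06). Respiratory chain genes were higher by adjusted p for 15 (26.8%) and lower for 2 (3.57%) of 56, with a median of 0.20. After the correction 8 (14.3%) were higher and 1 (1.79%) lower, with a median of 0.04. Among 64 genes of ribosomal proteins and elongation factors none was higher by adjusted p and 20 (31.2%) were lower, with a median of -0.09. After the correction 47 (73.4%) were lower, with a median of -0.30, against 18.9% of all genes.

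Of 14 tested HOX genes, HOXB13 was upregulated, with 17.8, 17.9 and 15.5 CPM in A549-NEO and 41.8, 33.3 and 39.3 CPM in A549-HOXC6. Over all tested genes, 1.7% were upregulated and 5.51% downregulated, and 1.3% and 2.55% after the correction. For HOXB13 this was a log2 fold change of 1.18 ± 0.19 (SE, adjusted p = 1.8e-05), and fell below the fold criterion after the correction at 0.89. HOXA2 was lower with -0.82 (adjusted p = 0.022) and was called after the correction with -1.07 (adjusted p = 0.0015), and without A549-HOXC6 replicate 3 it had -0.57 uncorrected. The cofactors PBX3, MEIS2 and MEIS3 had log2 fold changes of -0.61 (adjusted p = 0.014), 0.19 (adjusted p = 0.72) and 0.34 (adjusted p = 0.018). Of 27 lung and endoderm lineage genes, none passed the fold criterion, and GATA4, HNF4A and SOX9 were higher with 0.997 (adjusted p = 0.02), 0.95 (adjusted p = 1.0e-04) and 0.93 (adjusted p = 1.1e-04). SOX9 passed the criterion without A549-HOXC6 replicate 3, with 1.13. TFAP2A, a transcription factor of ectoderm and epithelia, was lower with 119, 133 and 151 CPM in A549-NEO and 67.1, 85.7 and 59.4 CPM in A549-HOXC6, at -0.96 (adjusted p = 1.4e-06) and then -1.10. Keratins and desmosome genes gave no call among 10, with KRT18 at 0.58 (adjusted p = 8.9e-07). The membrane proteins MALL and PDZK1IP1 were upregulated with 1.33 ± 0.17 and 1.01 ± 0.14, and MALL stayed called after the correction with 1.06 while PDZK1IP1 did not, with 0.67. PDZK1IP1 lay at the fold criterion, with 0.89 to 0.998 in the 3 cases in which leaving out 1 library ended its call.

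**Figure D5:**
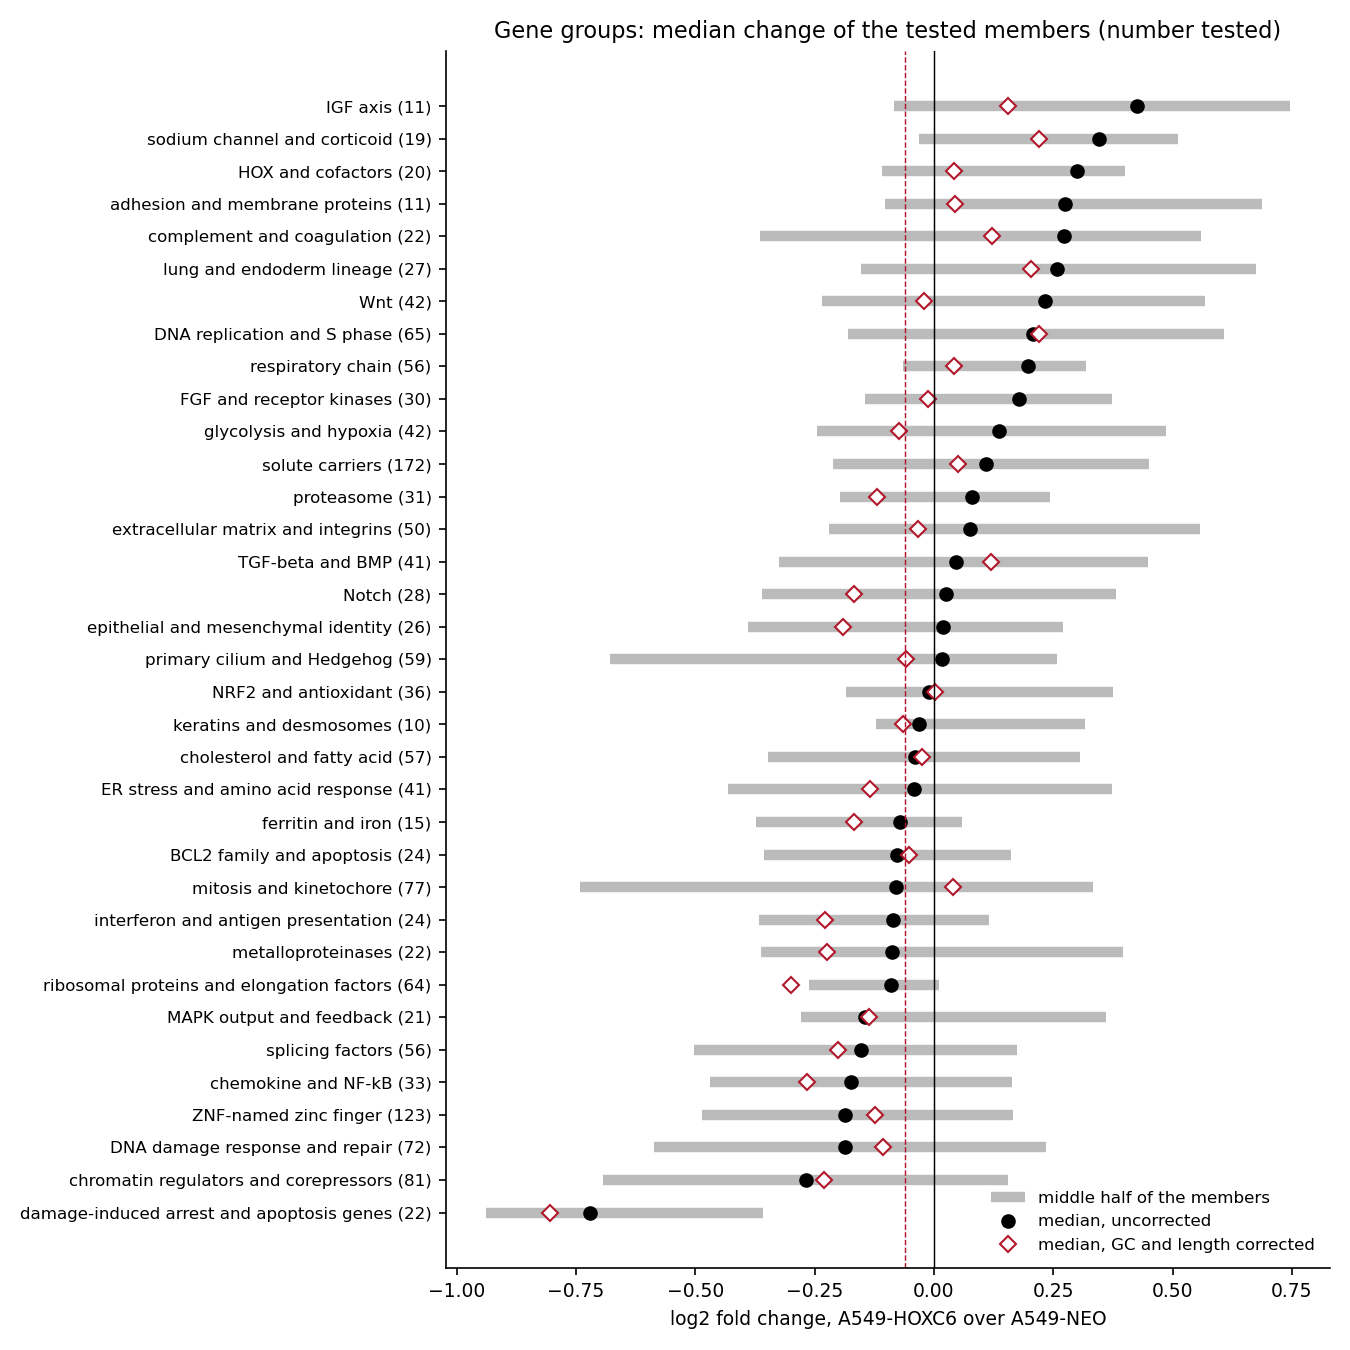
Median log2 fold change (A549-HOXC6 over A549-NEO) of the tested members of each gene group, before (filled circles) and after (open diamonds) the correction, with grey bars for the interquartile range of the members; the solid and dashed lines are the medians of all tested genes, 0.00 and -0.06. Among the groups drawn, the damage-induced genes of arrest and apoptosis lie lowest, at -0.72 and -0.80, and the IGF list lies highest before the correction, at 0.42 against 0.15 after it. The damage-induced genes are a part of a longer list, and the other groups are whole lists. Parts of those reach further before the correction, with -0.87 for 3 NRF2 regulators and 1.89 for 4 channel subunits.

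By chromosome, the median log2 fold change of the tested autosomal genes ran from -0.24 on chromosomes 13, 18 and 4 to 0.19 on chromosome 22, and the median GC content of the tested genes ran along with it, from 41.8% on 13 and 42.05% on 4 to 57.1% on 22 and 61.0% on 19. Downregulated genes made up 15.1% of the tested genes of chromosome 13 and 0.924% of those of chromosome 16. After the correction the medians lay between -0.17 on chromosome 13 and 0.01 on chromosome 8, and 2.36% (chromosome 9) to 5.92% (chromosome 13) of the genes were called in either direction.

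The same vector was introduced into PC9, another lung adenocarcinoma line, and 14 of the 24 leading A549 genes could be tested there. The difference between the lines was significant for 19.4% of 9229 genes by the interaction of vector and line, and for 11 of these 14. These 14 were chosen for large changes in the same A549 libraries, which favours a difference, so the shares cannot be compared. CHAC1 had a log2 fold change of -0.35 in PC9 against 2.72 ± 0.19 in A549, and the difference of 3.11 ± 0.37 (SE, adjusted p = 4.3e-08) passed the test. The difference was also significant for SCNN1B (2.56 ± 0.45, adjusted p = 4.7e-05), CEACAM6 (2.26 ± 0.50, adjusted p = 8.5e-04) and FSTL4 (1.78 ± 0.38, adjusted p = 6.3e-04) among the rises. For PHF3, ANKRD12 and TTK it did not pass, with 0.00 ± 0.15 (SE, adjusted p = 1), 0.35 ± 0.56 (SE, adjusted p = 0.73) and -0.60 ± 0.46 (SE, adjusted p = 0.4), and PHF3 had a log2 fold change of -2.15 in PC9. The other 10 genes, among them DLL4, SPARC, EMILIN1, FGFR2 and TBX3, had too few counts in PC9 for a test in that line.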

How the data were processed

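Poly(A) RNA of A549-HOXC6 and A549-NEO cells was made into libraries with a directional kit and sequenced as paired reads. The authors aligned to GRCh37.p13 and counted reads per gene, with bcl2fastq 2.19, HISAT2 2.1.0, HTSeq 0.9.1 and DESeq2 named in the submitters' processing notes. The strand setting is not given in the sources used here. The deposited values are raw read counts per gene, neither normalized nor pooled. All 12584 complete lines were used, 1 incomplete line was left out, and genes after it in the order of identifiers were not used here, so totals cover part of each library. Names, positions, GC content and length came from a GENCODE annotation of GRCh37 that holds 12463 of the genes. The 121 others received no correction.

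Genes were filtered with filterByExpr, scaled by TMM and compared with the quasi-likelihood test of edgeR 4.0.16 (R 4.3.3) over the 6 libraries, with Benjamini-Hochberg adjustment over all tested genes. SE is the size of the log2 fold change divided by the root of F. The correction used trends per library (mgcv 1.9.3) as offsets. The interaction of vector and line was fitted over 12 libraries. Scripts were tested on simulated data. No pair of replicates agreed within sampling noise (chi-square per degree of freedom of 1.65 to 4.26), so none was counted as a duplicate. A total of 3 counts equals 1.03 to 2.50 CPM.

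The gene lists and the genes described were chosen with earlier results of these data known. Named genes are the 12 called genes of largest change in each direction at a mean of at least 5 CPM, without overlap between groups and called after the correction; up to 5 such genes at any level; per list, up to 4 called genes in each direction and the member of highest level; and ligands, receptors and channel subunits of a list. NEDD4L, TSC22D3, FKBP5, NR3C1, MCM5, MCM3, TOP2A, STAG2, SRRM1, PCM1, IFT81, AHI1, ITGB1, ITGB5, VIM, TWIST1, ZEB1, LAMC1, C3, NFE2L2, KEAP1, PBX3, MEIS2 and the neighbouring genes were named after their values were seen. Some genes are not reported here. Alternatives were DESeq2 1.42.0, other scalings and filters, 12 libraries in one model, a null hypothesis that includes the fold criterion, a replicate block, thinning, and each library left out. Recentring after the correction was added after the data were seen.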

Additional observations from a re-analysis of the deposited data

Results flagged for a closer look

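Of the 24 genes with the largest changes in A549, 14 could be tested in PC9 and 11 of these differed between A549 and PC9 by the interaction of vector and line over 12 libraries (edgeR, adjusted p below 0.05). Their choice by size of change in the same A549 libraries favours such a difference. The difference in log2 fold change, A549 minus PC9, was 2.56 ± 0.45 (SE, adjusted p = 4.7e-05) for SCNN1B, 2.26 ± 0.50 (SE, adjusted p = 8.5e-04) for CEACAM6, 3.11 ± 0.37 (SE, adjusted p = 4.3e-08) for CHAC1 and 1.78 ± 0.38 (SE, adjusted p = 6.3e-04) for FSTL4, which rose in A549. It was -2.06 ± 0.65 (SE, adjusted p = 0.02) for INTU, -1.55 ± 0.51 (SE, adjusted p = 0.028) for GPR180, -1.64 ± 0.54 (SE, adjusted p = 0.026) for SRBD1 and -1.78 ± 0.55 (SE, adjusted p = 0.018) for MORC3. For UPF3B, RALGPS2 and EMC2 the differences were -1.09 ± 0.40 (SE, adjusted p = 0.047), -1.91 ± 0.34 (SE, adjusted p = 5.1e-05) and -1.30 ± 0.38 (SE, adjusted p = 0.012). In PC9 alone CHAC1 had a log2 fold change of -0.35 and RALGPS2 of -0.04. By an adjusted p below 0.05, CEACAM6, UPF3B and EMC2 also changed in PC9 in the same direction as in A549, with 1.02, -0.87 and -0.65.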

How the results depend on the processing

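The 149 upregulated and 483 downregulated genes became 140 and 397 with DESeq2, 157 and 471 with RLE size factors, 130 and 550 with library size only, and 211 and 445 with 12 libraries in one model. The count moved by over 1.5 times in these cases: 224 downregulated with the GC and length correction, 217 with that correction and the replicate block, 232 with GC alone, 95 upregulated with at least 10 counts in every library, and 25 upregulated and 37 downregulated with the fold criterion in the null hypothesis. Leaving out 1 library gave 129 to 183 upregulated and 396 to 634 downregulated genes, and 103 to 125 and 215 to 262 in the corrected fit. With the replicate number as a block (replicate block), 150 were upregulated and 493 downregulated, and 110 and 217 with the correction. The replicate numbers did not pair the samples, since deviations of the same number correlated at -0.03 to 0.04. Of the 112 named genes that were called, none changed direction in an alternative in which it was tested. With at least 10 counts in every library 65 of them were tested, after thinning 92, and with 12 libraries in one model 110. Corrected fits with 1 library left out were not part of this count. The correction for GC content and length left 64 of the 112 called, DESeq2 98, and leaving out A549-HOXC6 replicate 3 left 87. Depth limits genes of few counts: with 3 counts at 1.03 to 2.50 CPM, the folds of SCNN1G, C4BPA, FRMD4B and MLANA have wide intervals. INTU and ABCA5 also lay below 3 counts in A549-HOXC6 replicates 2 and 3.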
